A study of Mus musculus with 16 samples.

Results

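Mt1 and Mt2 encode the metallothioneins MT-I and MT-II, and their messenger RNA was followed in mouse fat over a day after an injection of dihydrotestosterone (DHT), a testosterone derivative that binds the androgen receptor tightly. All probe sets whose only gene symbol in the platform annotation is Mt1 or Mt2 were taken, which gave 1 probe set for each gene (93573_at for Mt1 and 101561_at for Mt2), or 2 of the 8251 genes measured. No probe set of the array listed either symbol together with another gene. Probe sequences were not used here, so how far each probe set tells these close paralogs apart was not tested. The samples were retroperitoneal fat, which lies at the back of the abdomen near the kidneys, from gonadectomised (GDX) mice, and each was hybridised to 1 single-colour Affymetrix array. Females and males had 8 arrays each, made up of 6 DHT arrays (0.1 mg under the skin, with necropsy 1, 3, 6, 12, 18 or 24 h later, 1 array a time) and 2 vehicle arrays. DHT and vehicle mice were gonadectomised alike, so that no array shows fat under intact gonads. The label of the vehicle samples carries a time of 24 h, taken here as the time since the vehicle injection. On that reading no vehicle array matches a DHT time before 24 h. At those times effects of DHT, of the injection itself and of the time since it cannot be told apart. Strain and age are not given in the sources used here. Fat from the mice of a group was collected together, so an array may stand for pooled animals, and no label tells whether both vehicle arrays of one sex stand for different animals. The p-values then measure the spread between these arrays, which may be technical.

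Metallothioneins are small proteins rich in cysteine that bind zinc and copper, and cadmium where it is present. They buffer free zinc and react with oxidants. Zinc induces Mt1 and Mt2 through the zinc-sensing factor MTF-1, which binds metal response elements in their promoters, and in the mouse glucocorticoids also induce both genes, through hormone response elements near Mt2. The androgen and glucocorticoid receptors recognise closely related DNA elements. Mt3 is best known from brain, and Mt4 from stratified squamous epithelium.

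The 4 metallothionein genes of the mouse lie side by side on chromosome 8, all on the plus strand, in the order Mt4, Mt3, Mt2, Mt1 (RefSeq, GRCm38.p6). Mt2 spans chr8:94172618-94173567 and Mt1 spans chr8:94178883-94180327, with 5315 bp between them. Mt3 (chr8:94152607-94154148) ends 18469 bp before Mt2, and Mt4 (chr8:94137204-94139031) ends 13575 bp before Mt3. RefSeq promoter windows were found for all 4 genes, each with 250 bases before and 50 after the start of transcription. The windows of Mt1 (chr8:94178839-94179138), Mt2 (chr8:94172368-94172667) and Mt3 (chr8:94152357-94152656) are printed because the first 2 genes moved together and the third, which lies next to them, passed no DHT test below. Each is given 5′ to 3′ on the plus strand, and capitals mark the core of the metal response element, searched on both strands.
Mt1: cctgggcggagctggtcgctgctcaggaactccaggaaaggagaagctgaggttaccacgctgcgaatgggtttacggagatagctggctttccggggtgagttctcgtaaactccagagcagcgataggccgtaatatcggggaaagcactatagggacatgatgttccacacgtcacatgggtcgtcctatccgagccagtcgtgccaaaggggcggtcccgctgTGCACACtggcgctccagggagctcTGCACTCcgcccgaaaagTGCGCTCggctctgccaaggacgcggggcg
Mt2: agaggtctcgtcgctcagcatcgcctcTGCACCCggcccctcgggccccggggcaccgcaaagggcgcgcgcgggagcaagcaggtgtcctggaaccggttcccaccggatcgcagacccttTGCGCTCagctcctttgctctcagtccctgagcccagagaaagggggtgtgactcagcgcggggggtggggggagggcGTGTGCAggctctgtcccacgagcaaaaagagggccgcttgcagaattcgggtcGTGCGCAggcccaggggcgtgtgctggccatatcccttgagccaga
Mt3: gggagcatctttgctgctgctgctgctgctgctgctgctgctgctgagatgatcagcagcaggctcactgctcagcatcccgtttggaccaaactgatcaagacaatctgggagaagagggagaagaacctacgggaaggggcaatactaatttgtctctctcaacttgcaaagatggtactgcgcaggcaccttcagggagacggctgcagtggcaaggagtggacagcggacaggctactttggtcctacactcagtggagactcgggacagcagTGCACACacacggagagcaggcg

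The core was searched as TGCACNC or TGCGCNC. The window of Mt2 held 4 matches, 2 of them reading on the minus strand, and that of Mt1 held 3, all on the plus strand. The windows of Mt3 and Mt4 held 1 match each. Counted from the start of transcription used, matches began at -223, -128, -50 and 4 for Mt2 and at -23, 2 and 20 for Mt1. Those of Mt3 and Mt4 began at 27 and -91. Of the 32851 mouse promoter windows of the same length, 0.517% held 4 or more matches, 1.97% held 3 or more and 25.7% held at least 1. The start of transcription used for the Mt1 window, at 94179089, lies inside the gene as annotated, whose first base is 94178883. Most of the Mt1 window thus lies within the annotated gene. The starts used for the other windows are the first bases of their genes, so the Mt1 count is not like for like with theirs. The hormone response half-site TGTTCT had no match in any of the 4 windows, against 19.0% of all windows, and so neither did the full hormone response palindrome, which contains it. A match describes letters and not a site in use, and the absence of one covers these 300 bases only.

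Values are MAS5 signals, which the authors scaled to a common mean on every array, so that each level is relative to the whole array. The trimmed mean was 500 on all 16 arrays and median signals lay between 184 and 220. Male vehicle replicate 2 stood apart. The summed signal of 15 skeletal muscle markers was 340288 on it, against 19253 to 67317 on the 12 DHT arrays and 29020 to 68088 on the other 3 vehicle arrays. Adipoq, the fat hormone that defines adipocytes, had a signal of 1946 there and at least 19206 on every other array, and the summed signal of 11 macrophage markers was 6455 there, against 28057 to 37716 on the other vehicle arrays. The female 12 h array carried exocrine pancreas transcripts (a sum of 76930 over 5 measured markers, against at most 2978 on the other DHT arrays and 6605 on the vehicle arrays). The summed signal of 10 kidney markers was 298 to 900 on DHT arrays, highest on the female 18 h array, and 285 to 495 on vehicle arrays. Its defining markers Kap and Umod stayed at or below 91.2 and 49.5, while Slc34a1, Aqp2, Lrp2 and Miox reached 265, 232, 219 and 120. The sum of 6 measured liver markers was 247 to 463 on DHT arrays and 220 to 396 on vehicle arrays, with Alb between 111 and 286. For 6 measured adrenal markers it was 1427 to 2632 on DHT arrays, highest on the female 18 h array, and 1426 to 2413 on vehicle arrays. The part of these transcripts in the results was not tested. Since the muscle-rich array is 1 of only 4 vehicle arrays, the main results are given with all 16 arrays and with the 15 that leave it out.

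Mt2 was higher at every DHT time from 3 h on than under vehicle, and highest at 6 h in both sexes. In females its signals were 1436 and 1642 with vehicle, then 1262 at 1 h, 3400 at 3 h, 10010 at 6 h, 6565 at 12 h, 5155 at 18 h and 3374 at 24 h after DHT. In males they were 1945 and 987 with vehicle, then 2147 at 1 h, 4797 at 3 h, 7729 at 6 h, 7629 at 12 h, 5617 at 18 h and 4805 at 24 h. All 10 DHT arrays from 3 to 24 h thus lay above all 4 vehicle arrays, a separation that 9 of the 5686 genes tested showed (0.158%), or 15 genes (0.264%) when the muscle-rich vehicle array was not counted. At 1 h the male array lay above every vehicle array and the female array lay below 3 of them. The lowest of the 16 values, 987, was that of the muscle-rich array.

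Mt1 followed a similar course with more scatter among the vehicle arrays. In females its signals were 2536 and 1429 with vehicle, then 1603 at 1 h, 2384 at 3 h, 6552 at 6 h, 4996 at 12 h, 4039 at 18 h and 3071 at 24 h. In males they were 2526 and 285 with vehicle, then 1910 at 1 h, 4221 at 3 h, 5513 at 6 h, 6812 at 12 h, 5388 at 18 h and 4827 at 24 h. The 8 arrays from 6 to 24 h all lay above every vehicle array, as did the male 3 h array, while the female 3 h array lay below 2 of them. The share of all genes that separate in this way from 6 to 24 h is not given here, so the count only describes Mt1. The value of 285 belongs to the muscle-rich array, and the next lowest vehicle value was 1429. Female signals were highest at 6 h for both genes, and male signals at 6 h for Mt2 and at 12 h for Mt1.

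**Figure D1:**
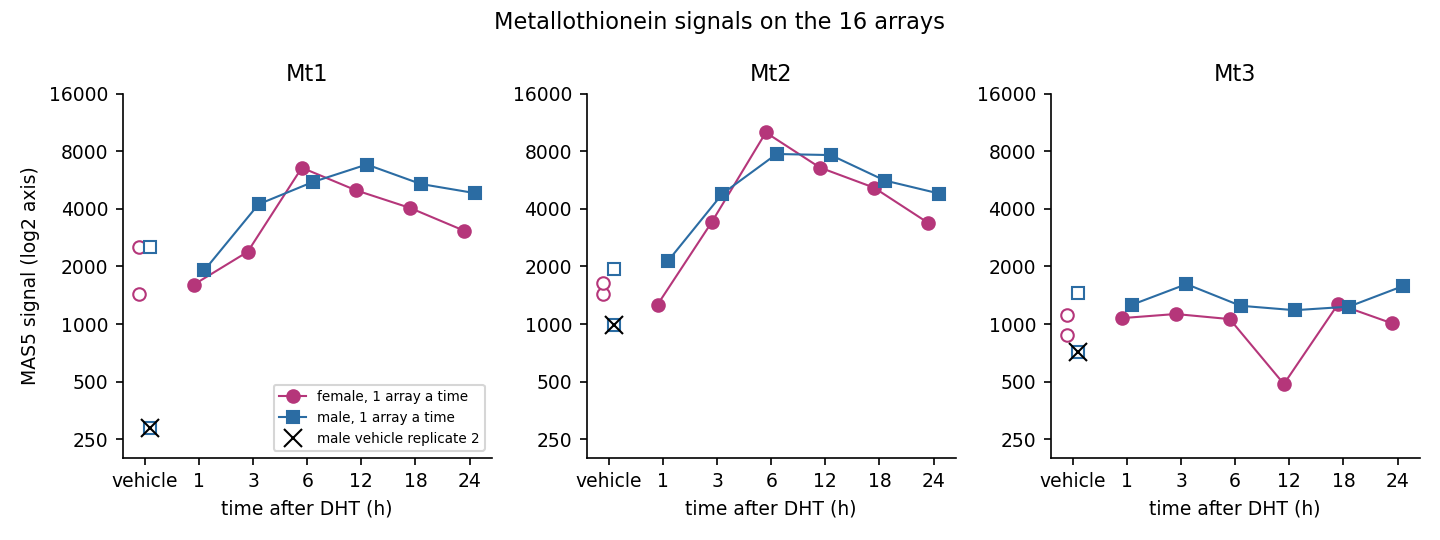
MAS5 signals of Mt1, Mt2 and Mt3 on each of the 16 arrays (log2 axis), by hours after DHT, with vehicle at the left; circles are female and squares male arrays, hollow for vehicle, and the cross marks male vehicle replicate 2. Mt2 climbs to 10010 in the female and 7729 in the male 6 h array, Mt1 shows the same arch over a vehicle spread of 285 to 2536, and Mt3 stays between 486 and 1616.

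Over all times, Mt2 averaged 5208 ± 2508 on DHT arrays (SD, n = 12) and 1503 ± 402 on vehicle arrays (SD, n = 4), or 1674 ± 256 (SD, n = 3) without the muscle-rich one. Mt1 averaged 4276 ± 1733 on DHT arrays (SD, n = 12) and 1694 ± 1073 on vehicle arrays (SD, n = 4), or 2164 ± 636 (SD, n = 3) without it. In a limma fit of log2(signal + 16) with sex and time as factors, Mt2 rose by a log2 change of 1.63 ± 0.20 (SE; adjusted p = 0.0116 over all genes tested). It was 1 of the 4 genes (0.0703%) that passed the threshold of 0.05 upward. With 15 arrays the change was 1.40 ± 0.14 (adjusted p = 0.00194), among 5 genes (0.088%). Mt1 had nearly the same difference with 16 arrays, 1.59 ± 0.47, but did not pass (adjusted p = 0.630), and with 15 arrays it was 0.83 ± 0.17 (adjusted p = 0.249). The median change of all genes tested was 0.04 with 16 and 0.01 with 15 arrays. Because bulk RNA was measured, more cells that express a gene and more RNA for each of them cannot be told apart. The call for Mt2 was lost without female vehicle replicate 1 (1.66, adjusted p = 0.0542; 2 genes passed when either female vehicle array was left out) and when each sex and time was given its own mean, which leaves few degrees of freedom (1.63, adjusted p = 0.992).

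A test that takes no spread from other genes permuted the DHT and vehicle labels within each sex. By this exact two-sided permutation test both genes were higher on DHT arrays: the mean difference was 1.63 for Mt2 (p = 0.00638) and 1.59 for Mt1 (p = 0.0115), each with an adjusted p of 0.0172 over the 3 quantities tested (both genes and their ratio). That adjustment does not cover all genes, and no share of all genes passing this test is given. Both genes were chosen with earlier results of these data known. Mt2 lay above the mean vehicle signal of its sex on 11 of 12 DHT arrays, and so did Mt1, the female 1 h array being the exception for each. With the muscle-rich array left out of the male mean the counts were 11 for Mt2 and 10 for Mt1, whose male 1 h array then also lay below it. For Mt3, which passed no DHT test, the count was also 11 of 12, and 7 with that array left out. The count with all vehicle arrays thus does not set Mt1 and Mt2 apart from Mt3. Without the muscle-rich array the difference was 1.39 for Mt2 (p = 0.0204, adjusted 0.0306) and 0.82 for Mt1 (exact permutation p = 0.0867, adjusted 0.0867). The smallest p this design allows is 0.00128 with 16 arrays and 0.0051 with 15. The Mt1 result thus turned on male vehicle replicate 2, and it also did not pass without female vehicle replicate 2 (1.39, adjusted p = 0.0765).

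By time, the fitted changes of Mt2 against vehicle were 0.17 at 1 h, 1.46 at 3 h, 2.58 at 6 h, 2.27 at 12 h, 1.87 at 18 h and 1.45 at 24 h on the log2 scale (SE 0.30 each, 2 arrays against 4). It passed at 6 h (5.97-fold, adjusted p = 0.00694 in limma) and at 12 h (4.81-fold, adjusted p = 0.0235), where 3 genes (0.0528%) passed upward at each time. It did not pass with 16 arrays at 1 h (adjusted p = 0.962 in limma), 3 h (0.794), 18 h (0.173) or 24 h (0.930). With 15 arrays the changes were -0.06, 1.22, 2.34, 2.03, 1.64 and 1.22 in the same order (SE 0.20 each). Mt2 then passed at 6 h (adjusted p = 0.000357; 5 genes, 0.088%), at 12 h (0.00105; 4 genes, 0.0704%) and at 18 h (0.0168; 2 genes, 0.0352%), and did not at 3 h (0.146) or 24 h (0.100), where 1 gene (0.0176%) passed upward at each time. Every call by time thus lay before 24 h, where no vehicle array matches on the reading given above. The 6 h call rests on 2 arrays and was lost without either of them (adjusted p = 0.114 without the male and 0.464 without the female array). The 12 h call was lost without the male 12 h array (0.189), the female 12 h array that carried pancreas transcripts (0.481), female vehicle replicate 1 (0.0829) or either 3 h array (0.0613 each), while the estimate kept between 2.03 and 2.38 over all arrays left out in turn.

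Mt1 passed at no single time. Its fitted log2 changes were 0.45, 1.30, 2.22, 2.17, 1.85 and 1.58 from 1 to 24 h with 16 arrays (SE 0.70 each). With 15 arrays they were -0.32, 0.53, 1.45, 1.41, 1.09 and 0.81 (SE 0.24 each), so that both the estimate and the standard error were smaller with the muscle-rich array left out. The smallest adjusted p values were then 0.0619 at 6 h and 0.0814 at 12 h.

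**Figure D2:**
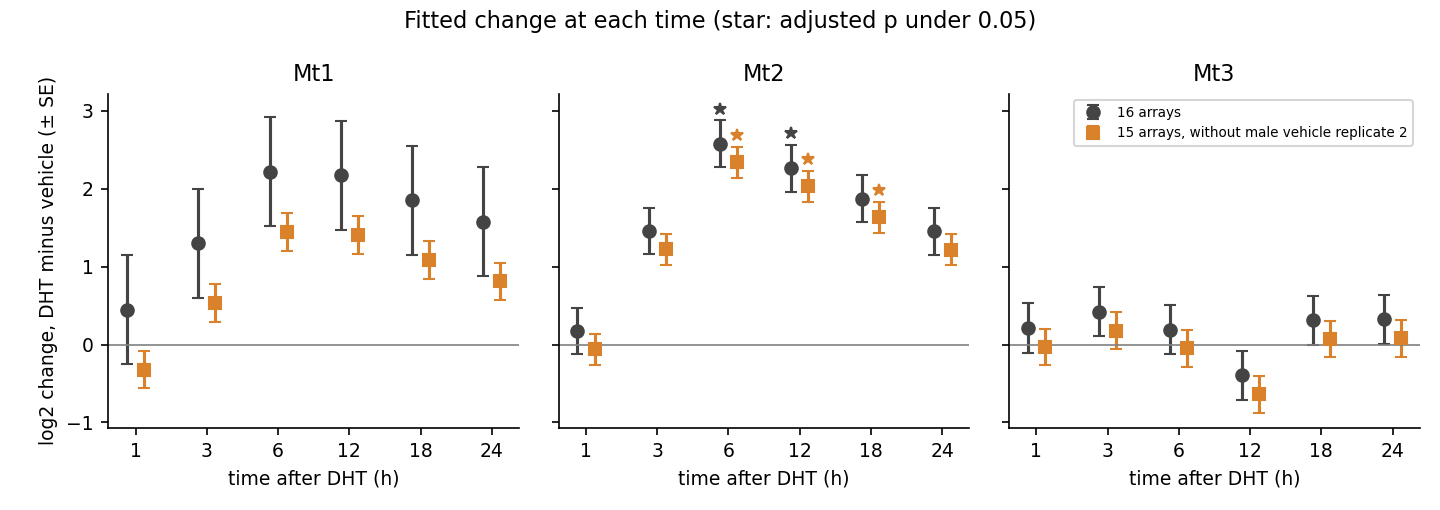
Fitted log2 change against vehicle at each time after DHT for Mt1, Mt2 and Mt3, with bars of ± 1 SE from limma; dark circles use 16 arrays, orange squares 15, and stars mark an adjusted p under 0.05. Stars stand over Mt2 alone, at 6 and 12 h with 16 arrays and at 6, 12 and 18 h with 15, and Mt1 at 6 h is 2.22 with 16 arrays and 1.45 with 15.

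The order of the fitted levels of Mt2 was, from low to high, vehicle, 1, 24, 3, 18, 12 and 6 h. The step between 1 h and 24 h was 1.28 ± 0.35 (SE), and the other neighbours differed by 0.41 at most, against a standard error of 0.30 to 0.35. With 15 arrays 1 h and vehicle changed places, and the large step, 1.22 ± 0.20, lay between 24 h and vehicle. For Mt1 the order was vehicle, 1, 3, 24, 18, 12 and 6 h. No step between its neighbours was clearly beyond the error, the largest being 0.85 ± 0.81 between 3 h and 1 h. With 15 arrays 1 h again came below vehicle, and 3 h lay 0.53 ± 0.24 above vehicle.

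The DHT arrays were also compared among themselves, with no vehicle array in the contrast. At 6 h Mt2 was 2.41 ± 0.35 (log2, SE) above 1 h and Mt1 1.77 ± 0.81. Neither passed with all 16 arrays (adjusted p = 0.112 for Mt2 and 1.00 for Mt1 in limma), where no gene passed upward (0%, with 21 genes at an unadjusted p under 0.05). The muscle-rich array does not enter these differences but enters the estimate of the spread, and without it both genes passed, Mt2 with 2.41 ± 0.22 (adjusted p = 0.000696) and Mt1 with 1.77 ± 0.26 (adjusted p = 0.0426), among 3 genes in all (0.0528%). For 24 h minus 6 h the difference was -1.12 ± 0.35 for Mt2 and -0.64 ± 0.81 for Mt1 with 16 arrays. Neither difference passed with 16 or 15 arrays (for Mt2 adjusted p = 0.371 in limma with 15), and no gene passed downward with either (0%). Among all genes tested, Mt2 ranked 7 by p in this contrast with 16 arrays and 2 with 15.

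Females and males were compared at matched times. Both genes had lower signals in females than in males at 5 of the 6 DHT times and higher signals at 6 h, where the female to male ratio was 1.29 for Mt2 and 1.19 for Mt1. On the log2 scale the widest gaps were at 3 h for Mt1 (female minus male -0.82), with 2384 in the female and 4221 in the male array, and at 1 h for Mt2 (-0.76), with 1262 in the female and 2147 in the male array. Averaged over 8 female and 8 male arrays, female minus male was -0.18 ± 0.17 for Mt2 (adjusted p = 0.640 in limma) and -0.01 ± 0.40 for Mt1 (0.993). By comparison 327 genes (5.75%) differed between the sexes. With 15 arrays the differences were -0.30 ± 0.11 for Mt2 (0.0972) and -0.39 ± 0.14 for Mt1 (0.0745), when 950 genes (16.7%) differed.

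The mean response over the 6 times was 1.42 for Mt2 and 0.83 for Mt1 in females, on the log2 scale against both female vehicle arrays. In males it was 1.85 for Mt2 and 2.36 for Mt1 against both vehicle arrays, and 1.37 and 0.82 against male vehicle replicate 1 alone. The difference between the sexes in response did not pass for Mt2 (-0.43 ± 0.39, adjusted p = 0.670 in limma) or Mt1 (-1.52 ± 0.84, 0.594), and 0% of genes passed it. Without the muscle-rich array it was 0.05 ± 0.31 for Mt2 and 0.02 ± 0.38 for Mt1, so that female and male means lay within 0.05 of each other with a standard error several times that size. With that array as the only male vehicle, the difference was -3.06 for Mt1 (adjusted p = 0.000114) and -0.92 for Mt2 (0.0412), when 33.6% of all genes passed, so that neither call is read as one about the metallothioneins.

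Mt1 and Mt2 moved together from array to array. Over the 12 DHT arrays Pearson's r of log2(signal + 16) was 0.960 and Spearman's rho 0.944, with permutation p values of 2e-05, the smallest that 100000 resamples give, and 4e-05 (adjusted 4e-05 and 8e-05 over 6 relations). Without both 1 h arrays, the farthest from the median of Mt2, r was 0.911. Over all 16 arrays r was 0.876 and rho 0.926 (permutation p = 2e-05 each, adjusted 4e-05 and 6e-05), and r was 0.919 without male vehicle replicate 2 and the female 1 h array. Within the 8 female arrays r was 0.924 and rho 0.833 (exact permutation p = 0.00198 and 0.0154, adjusted 0.00238 and 0.0154), with r = 0.841 once the 1 h and 6 h arrays were left out. Within the 8 male arrays r was 0.927 and rho 0.952 (exact permutation p = 0.000843 and 0.00114, adjusted 0.00126 and 0.00171), and r was 0.968 without both vehicle arrays. The arrays share the scaling to one mean and the course after DHT, and pairings were permuted across times. The p values thus do not measure a link of both genes beyond that shared course. The 6 relations use overlapping sets of the same arrays.

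The log2 ratio of Mt2 to Mt1 shows whether both genes changed by the same factor, while its own level has no meaning because the probes differ. It averaged 0.23 ± 0.26 on DHT arrays (SD, n = 12, from -0.34 to 0.61) and 0.19 ± 1.11 on vehicle arrays (SD, n = 4, from -0.81 to 1.74). The value of 1.74 was that of male vehicle replicate 2, on which Mt1 was far lower than on the other vehicle arrays and Mt2 less so. The difference of 0.04 did not pass (exact permutation p = 0.892, adjusted 0.892). Without this array the vehicle mean was -0.33 ± 0.51 (SD, n = 3), and the ratio was 0.57 higher on DHT arrays (exact permutation p = 0.0153, adjusted 0.0306). The difference turned negative without male vehicle replicate 1 (-0.49) or female vehicle replicate 1 (-0.21), so no direction holds for it.

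**Figure D3:**
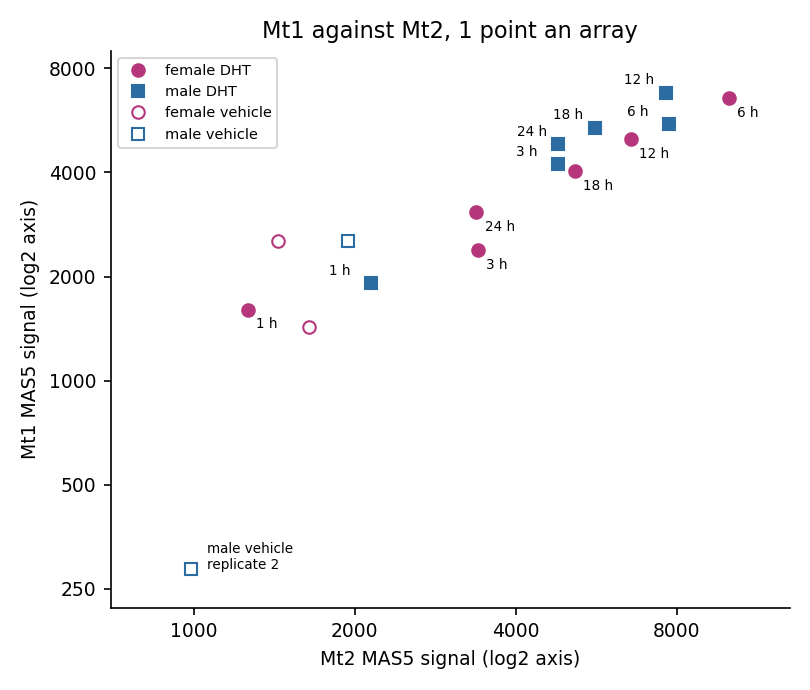
Mt1 signal against Mt2 signal (both log2 axes), 1 point an array, with the hours after DHT beside filled points; hollow points are vehicle arrays, circles female and squares male. The arrays from 3 to 24 h run along one line up to the 6 and 12 h arrays, and male vehicle replicate 2 lies below it with 285 for Mt1 and 987 for Mt2.

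The neighbouring Mt3, whose protein is known for zinc binding in brain, had a signal well above the low-signal limit of 116.03 but passed no DHT test. Its DHT signals ran from 486 to 1616 with a median of 1207, and its vehicle signals were 1120 and 872 in females and 1457 and 714 in males. It averaged 1178 ± 288 on DHT arrays (SD, n = 12) and 1040 ± 324 on vehicle arrays (SD, n = 4), and the groups overlapped. The DHT change was 0.18 ± 0.21 (adjusted p = 0.739 in limma), or -0.06 ± 0.17 with 15 arrays (0.998). The lowest value, 486, came from the female 12 h array with the pancreas transcripts, and their part in it was not tested. Female minus male was -0.36 ± 0.18 for Mt3 (0.304), and with 15 arrays it passed at -0.49 ± 0.13 (0.0284). Mt4, an epithelial form, had signals of at most 34.2 on DHT arrays and 53.0 on vehicle arrays, was left out of the test for low signal and gets no direction.

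Lists of zinc, copper, iron and oxidative stress genes were set beside the metallothioneins. Over all genes 0.0703% passed the test of DHT over all times upward with 16 arrays and 0.088% with 15, and 5.1% and 3.06% had an unadjusted p under 0.05 in either direction, so that a count of none in a short list is near the background. Of the metallothionein family list, 3 of 4 genes were tested and 1, Mt2, rose. Of a list of 20 genes, the zinc transporters and the sensor Mtf1, 12 were measured and 10 tested, and none passed in either direction in limma (0 at an unadjusted p under 0.05, with 16 or 15 arrays), with changes from -0.36 to 0.08 and a median of -0.10 (-0.09 with 15 arrays). Mtf1 and Slc30a1, a zinc exporter that MTF-1 controls, were measured but lay under the low-signal limit. With 16 arrays the zinc importers Slc39a6 (0.08 ± 0.21) and Slc39a4 (0.06 ± 0.24) and the transporters Slc30a9 (-0.36 ± 0.32) and Slc30a4 (-0.15 ± 0.18) had the smallest p in each direction (adjusted p = 0.662 to 0.929 in limma). With 15 arrays Slc39a6 was at 0.06, and the others changed sign, with -0.16 for Slc39a4, 0.10 for Slc30a9 and 0.046 for Slc30a4.

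None of the 8 tested genes of copper handling passed (1 at an unadjusted p under 0.05 in limma, and 0 with 15 arrays; 9 of 10 measured, median -0.02, or -0.06 with 15 arrays). Atp7a, a copper-exporting pump, had a change of 0.45 ± 0.19 and the importer Slc31a1 one of 0.32 ± 0.20, while Commd1 (-0.38 ± 0.23) and the mitochondrial copper chaperone Cox17 (-0.16 ± 0.20) were the lowest by p. With 15 arrays these were 0.32 for Atp7a, 0.074 for Slc31a1, -0.13 for Commd1 and 0.0058 for Cox17. None of the 7 tested iron genes passed either (1 at an unadjusted p under 0.05 with 16 and with 15 arrays; 8 of 11 measured, median 0.08, or 0.07 with 15 arrays). Hmox1, which degrades haem, and Aco1, the iron-sensing aconitase, each had 0.58, but 0.32 and 0.16 with 15 arrays. Slc11a2, an iron importer, was at -0.11 (-0.055 with 15 arrays) and the ferritin chain Fth1 at -0.06 (-0.0096). Of the oxidative stress list 15 of 16 genes were measured and 11 tested, and none passed (1 at an unadjusted p under 0.05, and 0 with 15 arrays; median 0.12, or 0.08 with 15 arrays). Catalase (Cat) had 0.53 and Gpx3, a secreted glutathione peroxidase, 0.33, while Gclm, a subunit of the enzyme that starts glutathione synthesis, had -0.19 and the thioredoxin reductase Txnrd1 -0.11. With 15 arrays these were 0.22 for Cat, 0.073 for Gpx3, -0.28 for Gclm and 0.077 for Txnrd1.

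A list written as targets of androgen and glucocorticoid response elements held members that rose. Whether such elements act at these genes was not tested. Of 29 genes 26 were measured and 22 tested, and 3 rose and none fell with 16 arrays, against 0.0703% of all genes, and 4 rose with 15, against 0.088%, with a median change of 0.14 (0.22 with 15 arrays). Of the 22 changes 14 were positive with 16 arrays, against 55.4% of all genes, and 20 with 15, against 51.3%. At an unadjusted p under 0.05 in limma there were 6 and 9, against 5.1% and 3.06% of all genes. Fkbp5, a co-chaperone of steroid receptors, changed by 1.38 ± 0.18, Gadd45g, a stress-induced growth arrest gene, by 1.44 ± 0.15, and Errfi1, which inhibits the EGF receptor, by 0.79 ± 0.12. With 15 arrays these changes were 1.52 ± 0.16 for Fkbp5, 1.36 ± 0.15 for Gadd45g and 0.73 ± 0.11 for Errfi1, and Cdkn1a, the cell cycle inhibitor p21, joined them at 0.87 ± 0.14 (adjusted p = 0.0389 in limma). These genes and Mt2 make up all 5 that passed over all times with 15 arrays. The list was written with earlier results of these data known, so its count is a description.

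The list for IL-6 and the acute phase, a reaction known to induce metallothioneins in liver, had 13 of 14 genes tested. None passed, against 0.0703% of all genes past the threshold upward. At an unadjusted p under 0.05 in limma there were 3 of the 13 with 16 arrays and 4 with 15. The shares of all genes were 5.1% and 3.06%. This list too was written with earlier results of these data known, so its higher counts are a description. Its median was 0.58 with 16 arrays and 0.06 with 15, so that the higher median was not seen once the muscle-rich vehicle array was left out. Cebpd, a transcription factor of that reaction, had 0.69 ± 0.13 (0.71 with 15 arrays, adjusted p = 0.137) and Lrg1, a secreted acute phase protein, 0.93 ± 0.33 (0.38 with 15 arrays), while the kinase Jak2 (-0.22, but 0.088 with 15 arrays) and the receptor subunit Il6st (-0.03, but 0.028) were lowest by p.

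**Figure D4:**
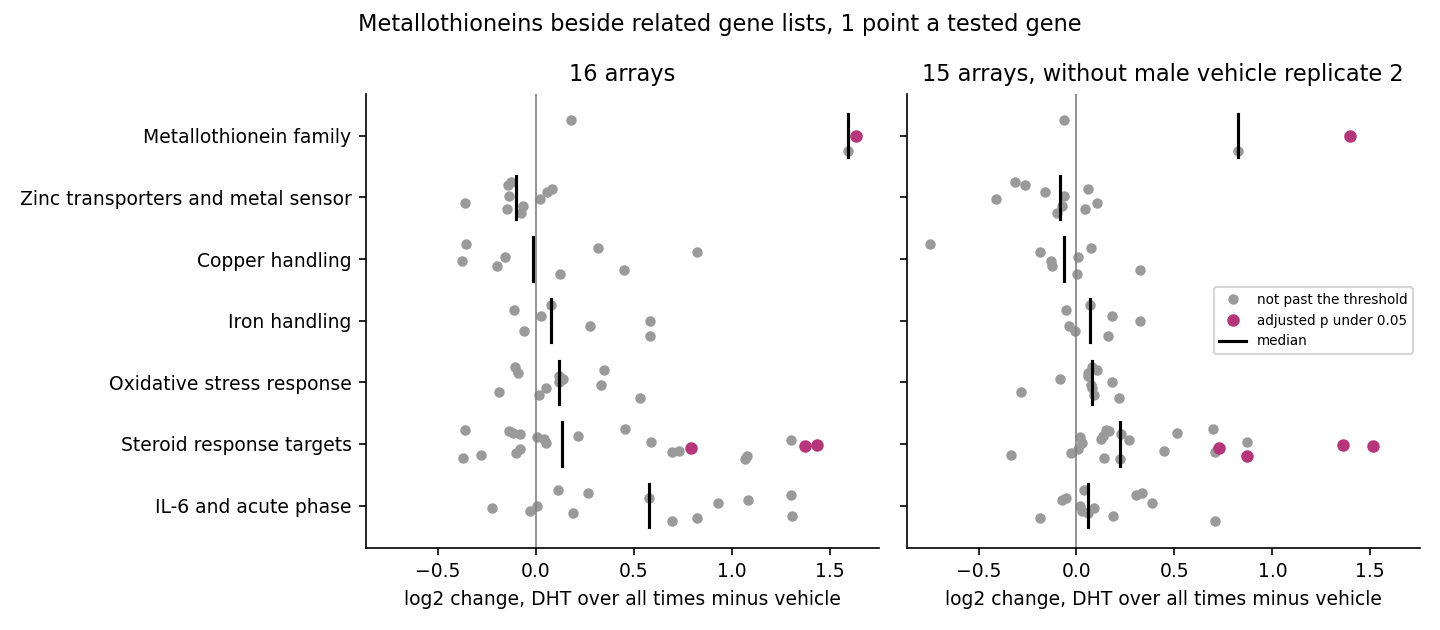
Log2 change over all DHT times minus vehicle for each tested gene of 7 lists, with 16 arrays (left) and 15 (right); coloured points have an adjusted p under 0.05 and bars are list medians. Coloured points are Mt2 and, of the list of steroid response targets, 3 genes at the left and 4 at the right. None are in the metal, iron, oxidative stress or acute phase lists. The acute phase median is 0.58 at the left and 0.06 at the right.

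Among all genes tested, the one whose signal was most like that of Mt2 was Fkbp5, with r = 0.912 over 16 arrays and 0.969 over 15. Next over 16 arrays came Cdkn1a (0.885), Mt1 (0.876), Dctn3, a subunit of dynactin (0.825), Alas1, the first enzyme of haem synthesis (0.805), and Ift27 (0.773). Over 15 arrays they were Mt1 (0.933), Pnp, a purine enzyme (0.876), Cdkn1a (0.854), Dctn3 (0.809) and Alas1 (0.745). The genes most like Mt1 over 16 arrays were Id3 (0.927), Dctn3 (0.924), Rgcc (0.912), Agt, which encodes angiotensinogen (0.893), and Pnp (0.892), and Mt2 ranked 8. Pnp, Agt and Id3 had signals of 515, 305 and 308 on male vehicle replicate 2, against means of 3546, 1345 and 1038 on the other 3 vehicle arrays. Over 15 arrays Mt2 came first (0.933), before Fkbp5 (0.880), Dctn3 (0.828), Msrb1, a methionine sulfoxide reductase (0.827), Pnp (0.809) and Id3 (0.805). These genes were picked as the highest r among 5685, and the arrays share their scaling and time course, so the coefficients are descriptions.

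The annotated neighbours of the cluster were listed next. Of 15 other protein-coding genes within 500 kb of Mt1 and Mt2, 7 were measured, and 5 had enough signal to be tested. None passed in limma with 16 arrays (1 at an unadjusted p under 0.05) or 15 (0), where the background for a rise was 0.0703% and 0.088%. Their changes were -0.09 for Gnao1, a G protein subunit, 0.03 for the RNA processing factor Nudt21, -0.47 for Herpud1, a gene of the endoplasmic reticulum stress response, -0.18 for Psme3ip1 and 0.06 for Arl2bp. With 15 arrays they were -0.056 for Gnao1, -0.045 for Nudt21, -0.22 for Herpud1, -0.093 for Psme3ip1 and -0.027 for Arl2bp. Nup93 and Slc12a3, the measured genes nearest to Mt1 on its far side, were under the low-signal limit.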

How the data were processed

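The authors deposited 1 linear signal intensity for every probe set on an array, made with MAS5 per the submitters' processing notes (version not given in the sources used here). Detection calls were not used. Of 12488 probe sets, 66 are controls and 1237 were left unnamed by the platform annotation. Where a gene had several probe sets, the brightest by mean log2 signal stood for it (8251 genes), and 5686 genes above the 40th percentile of mean signal (116.03) were tested. limma (version 3.58.1, R 4.3.3) was fitted to log2(signal + 16), which understates changes of low signals, with sex and time as factors, eBayes and a mean trend (8 residual degrees of freedom). A second model added a sex by DHT term. Tests were two-sided, with Benjamini-Hochberg adjustment over all genes tested, and the method was tested on simulated data. The number of arrays limits the precision. Named were the metallothioneins, list members past the threshold or, where fewer than 2 passed, the 2 with the smallest p each way, the 5 genes of highest r, and measured neighbours within 500 kb. The genes and lists were chosen with earlier results of these data known. Motifs were searched in RefSeq promoter windows (GRCm38.p6). Alternatives were pseudocounts of 1 and 64, no filter, quantile normalization, all probe sets, own means for every combination of sex and time, and each array left out.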

Additional observations from a re-analysis of the deposited data

How the results depend on the processing

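Each of 27 results was recomputed under up to 24 settings, of which 16 left out 1 array. Pseudocounts of 1 and 64, no filter on low signal and all probe sets tested changed no direction and no call of Mt1 or Mt2, while 5 genes passed over all times with no filter and 3 with all probe sets, against 4. Under quantile normalization only female against male for Mt1 turned, to 0.039. With own means for every sex and time the estimates of Mt2 were the same but no longer passed, over all times (1.63), at 6 h (2.58) and at 12 h (2.27), with adjusted p values from 0.992 to 1.00, and 0 genes passed over all times in limma. The mean level of antisense control spots, a covariate chosen after seeing the data, turned female against male for Mt1 (0.099). Together with 15 arrays it gave -0.14 for Mt1 and -0.12 for Mt2 at 1 h and sex differences of response of 0.018 and 0.049, all turned and none passing, and Mt2 passed at 18 h (1.66) and for 6 h against 1 h (2.43). Leaving out single arrays gave these ranges. Mt2 over all times ran from 1.40 to 1.75, with 2 to 5 genes past the threshold. At 1 h Mt1 ran from -0.32 to 0.80 and Mt2 from -0.16 to 0.50. Mt2 ran from 2.26 to 2.89 at 6 h, from 2.03 to 2.38 at 12 h and from 1.64 to 1.99 at 18 h. For 6 h against 1 h Mt1 ran from 1.62 to 1.92 and Mt2 from 2.08 to 2.74. Female against male for Mt1 ran from -0.39 to 0.17. The sex difference of response ran from -3.06 to 0.016 for Mt1 and from -0.92 to 0.050 for Mt2. The permuted difference of Mt1 ran from 0.82 to 2.36, and that of the Mt2 to Mt1 ratio from -0.49 to 0.57. Where a call changed, the cause was not tested, beyond the loss of arrays itself. No paired analysis was possible because the labels number no replicates, and numbers assigned by accession do not link samples. With 1 array for each sex and time, array noise and a sex difference at that time cannot be told apart.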
